A study of Mus musculus with 6 samples.

Results

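Collagens and the proteins that process them were followed in inguinal fat, a subcutaneous depot, of male C57BL/6J mice, an inbred strain whose members gain unequal weight on a fatty diet. The members were chosen by gene symbol, each on a probe annotated with 1 gene symbol. Genes for collagen chains (Col followed by a chain number) and collagen galactosyltransferases (Colgalt) were taken. So were prolyl and lysyl hydroxylases with their relatives and partners (P4ha, P3h, Plod, Crtap). The rest were the Lox family, procollagen C-proteinase enhancers (Pcolce), Serpinh1, Bmp1, Sparc and discoidin domain receptors (Ddr). The members came to 57 genes on 60 probes, of 13840 genes named in this way on the array. Of these, 39 had a probe with a value on all 6 arrays, 20 of 34 collagen chains and 19 of 23 of the others. For each gene the brightest such probe was used.

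The high gainers were an RNA pool of 8 mice with high weight gain, and the low gainers a pool of 8 mice with low weight gain. All mice were fed the high saturated fat diet D12331 from 8 weeks of age for 4 weeks. They were housed singly, but the labels and the study's methods differ on the age at which this began. Each pool was hybridised to 3 one-colour arrays (H1, H2 and H3 for high gainers, L1, L2 and L3 for low gainers). These arrays are technical repeats of 1 pool, so every SD, interval and p below measures the spread between arrays and not between mice. There was no group on a low-fat diet, and a pool gives no value for a single animal.

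Collagen is made as 3 chains that wind into a helix. Prolyl and lysyl hydroxylases modify the chains in the endoplasmic reticulum, the chaperone HSP47 (Serpinh1) holds the helix, proteinases trim the propeptides after secretion, and lysyl oxidases cross-link the assembled fibrils. In fat, type I and type III collagens form fibrils between cells, type VI collagen forms microfibrils around adipocytes, and type IV collagen forms the basement membrane of each adipocyte and blood vessel.

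Most collagens and processing genes had higher signals in the high-gainer pool, by small amounts, and few passed the test. A gene was called where limma gave a Benjamini-Hochberg adjusted p under 0.01 over all 15821 probes and the ratio of high to low gainers was at least 1.5-fold. Of the 39 measured members 2 rose, Pcolce2 and Col18a1 (5.13%, against 2.5% of all probes), and 0 fell (against 3.99% of all probes). The median log2 ratio, high over low gainers, was 0.42 for the 39 members and 0.03 for all probes. It was 0.47 for the 20 collagen chains and 0.40 for the 19 enzymes, chaperones and receptors. The log2 ratio was above 0 for 34 members (87.2%), against 54.1% of all probes. All 3 high-gainer arrays lay above all 3 low-gainer arrays for 26 members (66.7%), against 20.3% of all probes, and below them for 0 members, against 16.3%. An unadjusted limma p under 0.05 with the higher signal in high gainers was found for 28 members (71.8%), against 17.4% of all probes, and with the lower signal for 0 members, against 13.6%. At the looser threshold of an adjusted p under 0.05, 16 of the 39 members stood higher in high gainers, against 8.87% of all probes. Since the members share 2 pools, a shift common to many of them is a single difference between these pools and is not repeated evidence.

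**Figure D1:**
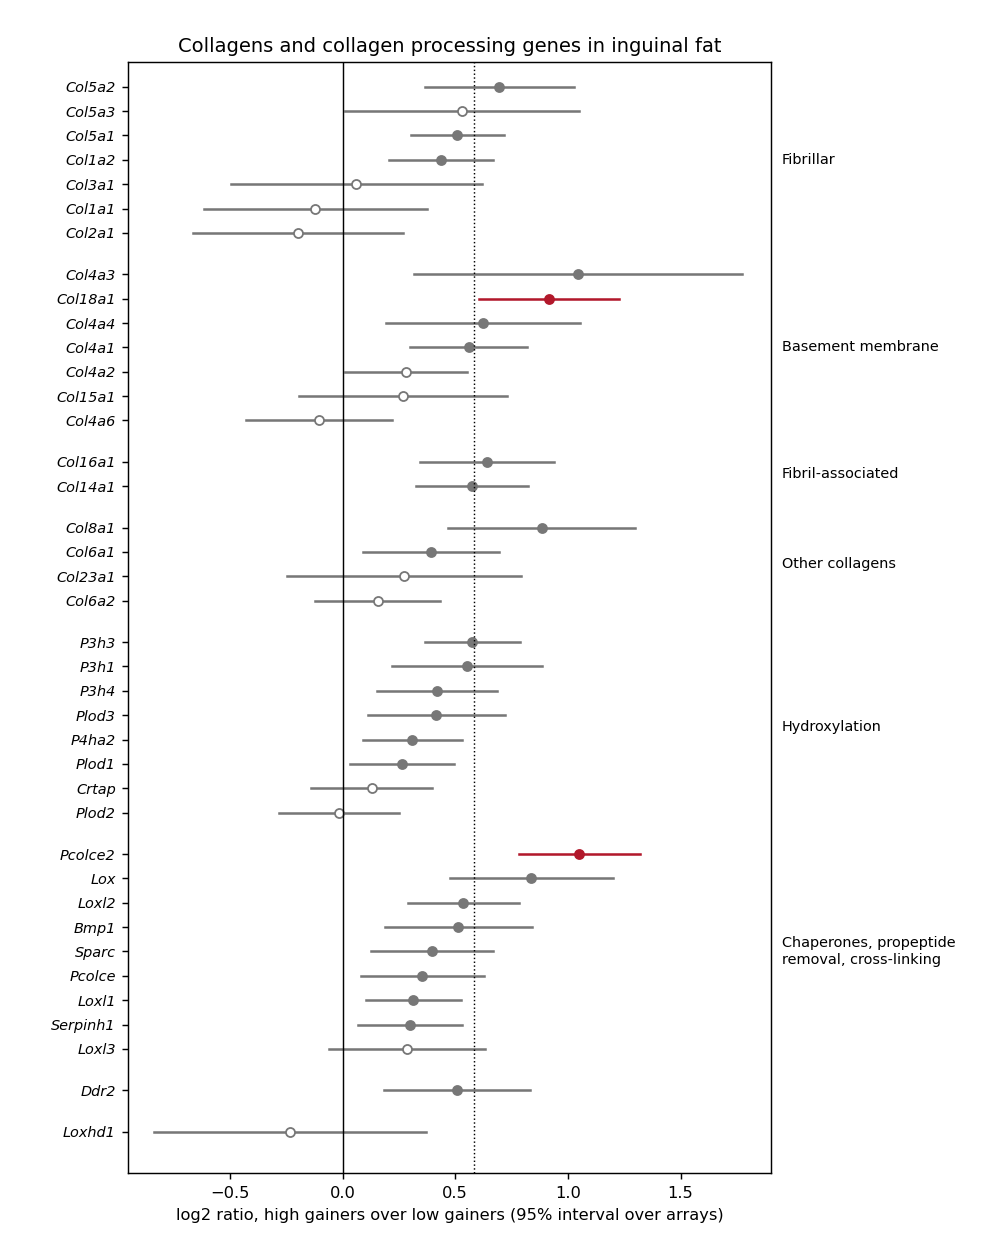
Log2 ratio of high gainers over low gainers for the 39 measured members, grouped by role, with the 95% interval of the limma fit over arrays. Red marks the 2 called members, filled points mark members whose 3 high-gainer arrays lay above all 3 low-gainer arrays, and the dotted line is 1.5-fold. The 95% interval lay above 0 for 28 members, held 0 for 11 and lay below 0 for 0.

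The standard error of the log2 ratio of a member was between 0.09 and 0.31 (median 0.13), so a true ratio near 1.5-fold could lie on either side of the threshold. Only 8 members had a ratio of 1.5-fold or more, and 2 of 2-fold or more. The adjusted p was between 0.01 and 0.02 for 7 members. Of these, Lox, Col8a1, Col5a2 and Col16a1 had a ratio of 1.5-fold or more, and Col14a1, Loxl2 and Col4a1 did not. The probes of 9 members were dim, with a mean signal in the lowest 33.3% of all tested probes (below 7673).

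Pcolce2, a homologue of the protein that enhances cleavage of the C-propeptide of procollagen by BMP1-type proteinases, had the lowest adjusted p of the members. Its signal was 241564, 228843 and 282870 on the high-gainer arrays, against 112248, 127750 and 122602 on the low-gainer arrays. The 3 high-gainer arrays were all above the 3 low-gainer arrays. The pool means were 251092 ± 28246 in high gainers and 120867 ± 7895 in low gainers (SD, n = 3 arrays each), a ratio of 2.07-fold (95% interval 1.72 to 2.50, adjusted p = 0.0011). Pcolce2 was called without any 1 of the 6 arrays, with adjusted p from 0.0035 to 0.0074.

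Col18a1, which encodes the basement membrane chain whose C-terminal fragment is endostatin, was the other called member. It read 86424, 90821 and 88242 in high gainers, against 56107, 40434 and 45415 in low gainers. The high-gainer arrays were closely grouped and the low-gainer arrays were more scattered, with no overlap. The means were 88496 ± 2209 in high gainers and 47319 ± 8008 in low gainers, a ratio of 1.89-fold (95% interval 1.52 to 2.34, adjusted p = 0.0040). With 1 array left out Col18a1 passed only without L1, and its adjusted p was up to 0.0203 without H1. Its log2 ratio was between 0.81 and 1.05 in these 6 fits. Leaving out an array also lowered the calls higher over all probes, from 396 to between 105 (without H1) and 319 (without L1). The count of called members was 1 without H1, H2, H3 or L3, 3 without L1 (Lox added) and 2 without L2 (Col16a1 in place of Col18a1).

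The promoters of the called genes are printed for reference, and their part in the calls was not tested. Each is 250 bases before and 50 after an annotated start, from RefSeq on mouse build GRCm38.p6, 5′ to 3′ in the direction of the gene. Col18a1 has 2 starts, at chr10:77113656-77113955 and chr10:77166481-77166780 (minus strand), and the files do not say which one the probe reads. Pcolce2 lies at chr9:95637378-95637677 (plus strand). Capitals mark the GC box, the letters GGGCGG searched on both strands. It occurs 0 times in the first Col18a1 window, 3 times in the second and 2 times in that of Pcolce2.
Col18a1 first start: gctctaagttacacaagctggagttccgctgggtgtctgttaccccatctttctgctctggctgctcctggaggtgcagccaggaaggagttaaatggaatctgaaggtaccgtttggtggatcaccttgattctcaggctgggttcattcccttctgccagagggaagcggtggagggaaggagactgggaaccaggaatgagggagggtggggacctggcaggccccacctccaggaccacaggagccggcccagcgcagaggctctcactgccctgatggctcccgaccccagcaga
Col18a1 second start: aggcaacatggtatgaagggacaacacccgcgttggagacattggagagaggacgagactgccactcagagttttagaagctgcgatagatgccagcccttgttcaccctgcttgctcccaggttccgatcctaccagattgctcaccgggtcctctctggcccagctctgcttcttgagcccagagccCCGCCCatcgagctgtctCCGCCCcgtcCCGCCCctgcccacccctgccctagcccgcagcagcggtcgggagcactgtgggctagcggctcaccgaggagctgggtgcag
Pcolce2: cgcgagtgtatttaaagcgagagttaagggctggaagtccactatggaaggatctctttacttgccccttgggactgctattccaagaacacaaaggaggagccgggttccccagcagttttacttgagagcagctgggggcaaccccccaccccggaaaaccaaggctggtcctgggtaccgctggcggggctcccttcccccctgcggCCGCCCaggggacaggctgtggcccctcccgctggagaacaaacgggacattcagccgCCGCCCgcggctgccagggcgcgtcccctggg
Of the 39 measured members, 26 had a window (29 windows in all). A GC box was present for 18 of the 26 members (69.2%), in 69% of their windows, against 35.7% of all 32851 mouse windows in the table. The CCAAT box (CCAAT, either strand) was present for 8 members (30.8%, against 37.4% of all windows) and the letters TATAAA for 4 (15.4%, against 13.6%). A CCAAT box read on the opposite strand ends in GG and can run into a GC box. A match describes the sequence only.

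Among the fibrillar collagens, which form the cables of connective tissue, 7 chains were measured and limma called 0. An unadjusted limma p under 0.05 was found for 4, all higher (57.1%, against 17.4% of all probes). Their ratios were split: 5 were above 0 and 2 below. The chains of type V collagen, which joins type I fibrils and sets their thickness, stood highest. Col5a2 read 273777, 312438 and 249102 in high gainers and 201353, 150535 and 165436 in low gainers, without overlap (1.62-fold, log2 ratio 0.70 ± 0.14 SE, adjusted p = 0.0161). Col5a1 read 390068, 363151 and 396412 in high gainers, against 267914, 270430 and 268763 in low gainers. Its adjusted p passed at 0.0089, but its ratio of 1.42-fold did not reach 1.5-fold. The remaining chain of this type, Col5a3, was dim and the arrays overlapped (1.44-fold, adjusted p = 0.1548).

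The 2 chains of type I collagen did not give the same reading. Col1a2 read 737469, 739425 and 707310 in high gainers, against 589051, 506271 and 520041 in low gainers, again without overlap (1.35-fold, adjusted p = 0.0234). Col1a1 read 312438, 230253 and 183287 in high gainers, against 312666, 233666 and 232223 in low gainers, with the pools interleaved (log2 ratio -0.12 ± 0.21 SE, adjusted p = 0.749). The 95% interval of the Col1a1 ratio ran from 0.653 to 1.29, which overlaps that of Col1a2 (1.15 to 1.59), and the difference between the chains was not tested. Each chain was read by 1 probe.

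Col3a1, the chain of type III collagen, was the brightest member and the noisiest of the bright ones. It read 1026996, 1065679 and 1476061 in high gainers and 977541, 1594998 and 910847 in low gainers. Within each pool 1 array, H3 and L2, stood far above the other two, and the ratio of 1.04-fold had a 95% interval of 0.709 to 1.54. Col2a1, the collagen of cartilage, was dim, with a mean of 6166 ± 542 in high gainers and 7240 ± 2168 in low gainers (0.873-fold, adjusted p = 0.5605). No direction can be read for Col3a1, Col1a1 or Col2a1 at this precision.

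Basement membrane collagens gave 7 measured chains of 8, with a median log2 ratio of 0.56 and Col18a1 as the 1 called chain. Col4a1 and Col4a2 form the ordinary type IV network and are transcribed from a shared promoter in opposite directions. Col4a1 read 531512, 460365 and 505102 in high gainers, against 376491, 315703 and 324580 in low gainers (1.47-fold, adjusted p = 0.0147). Col4a2 read 121331, 113230 and 98106 in high gainers, against 87603, 86396 and 99034 in low gainers, and H3 fell just under L3 (1.22-fold, adjusted p = 0.1475). The windows of the pair, at chr8:11312777-11313076 (minus strand, Col4a1) and chr8:11312555-11312854 (plus strand, Col4a2), share 78 bases. They are shown because 1 stretch of DNA starts both genes. Capitals mark the shared bases, which are the reverse complement of each other in the 2 lines.
Col4a1: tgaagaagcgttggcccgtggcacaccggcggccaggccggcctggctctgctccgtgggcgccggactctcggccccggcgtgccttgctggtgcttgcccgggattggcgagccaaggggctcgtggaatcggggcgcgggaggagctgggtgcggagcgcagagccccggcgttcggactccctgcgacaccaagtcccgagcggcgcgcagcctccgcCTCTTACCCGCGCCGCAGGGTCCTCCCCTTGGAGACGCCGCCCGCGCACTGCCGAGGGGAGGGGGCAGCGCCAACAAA
Col4a2: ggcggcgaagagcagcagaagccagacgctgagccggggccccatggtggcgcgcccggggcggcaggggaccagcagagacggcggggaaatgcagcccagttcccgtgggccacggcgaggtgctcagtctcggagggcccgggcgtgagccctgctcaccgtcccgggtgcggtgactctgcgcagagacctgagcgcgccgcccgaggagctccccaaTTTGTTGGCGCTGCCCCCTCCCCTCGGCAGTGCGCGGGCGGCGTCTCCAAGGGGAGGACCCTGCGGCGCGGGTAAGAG

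Of the remaining type IV chains, Col4a3 and Col4a4 had mean signals at the dim end and Col4a6 did not. Col4a3 read 2710, 2788 and 6149 in high gainers, against 1526, 1676 and 2064 in low gainers. Its ratio of 2.06-fold was next to that of Pcolce2 in size, but H3 alone was more than the sum of H1 and H2, its SE was 0.31 and its adjusted p was 0.0606. Col4a4, its partner chain, read 7079, 10184 and 9164 in high gainers, against 6975, 5442 and 4759 in low gainers (1.54-fold, adjusted p = 0.0599). Col4a6 overlapped between pools (log2 ratio -0.10, adjusted p = 0.6638), as did Col15a1, the relative of Col18a1, at 115336 ± 12699 in high gainers and 97928 ± 27722 in low gainers (1.20-fold, adjusted p = 0.4119).

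**Figure D2:**
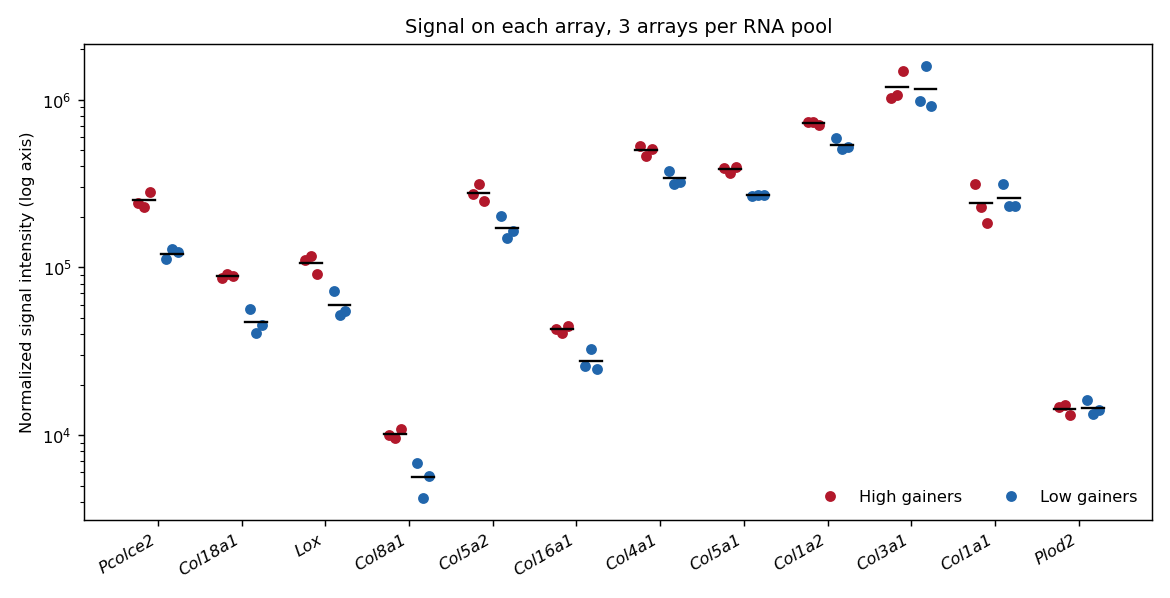
Normalized signal (log axis) on each array for 12 members, with high gainers in red to the left of low gainers in blue and a black line at the mean of 3 arrays. Pools were apart for Pcolce2 through Col1a2 and overlapped for Col3a1, Col1a1 and Plod2. Heights of different genes cannot be compared, since each comes from another probe.

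The fibril-associated collagens sit on the surface of fibrils. Of 6 on the array, Col14a1 and Col16a1 were measured, and neither was called. Both were higher at an unadjusted limma p under 0.05, as were 17.4% of all probes. Col16a1 read 42998, 40741 and 44713 in high gainers, against 25688, 32518 and 24646 in low gainers (1.56-fold, adjusted p = 0.0145). Col14a1 read 88622, 94428 and 79670 in high gainers, against 63107, 56405 and 56768 in low gainers (1.49-fold, adjusted p = 0.0111). Both were separated between pools, and both missed the adjusted p threshold by a small margin. Col14a1 also fell just short of the 1.5-fold threshold.

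Of 11 other collagens 4 were measured. Col8a1, a short-chain collagen of vessel walls, read 9948, 9540 and 10889 in high gainers and 6853, 4210 and 5698 in low gainers. Its ratio of 1.85-fold was the largest of this group (adjusted p = 0.0152), but its probe was dim. The type VI chains gave smaller ratios: Col6a1 averaged 341987 ± 18653 in high gainers and 262372 ± 40522 in low gainers (1.31-fold, adjusted p = 0.0818), and Col6a2 averaged 63570 ± 7078 in high gainers and 56947 ± 4679 in low gainers (1.11-fold, adjusted p = 0.4228). Col23a1, a transmembrane collagen, was dim and overlapped (1.21-fold, adjusted p = 0.4586).

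Among the enzymes that modify collagen chains, with their relatives and partners, 8 of 11 were measured. Their median log2 ratio was 0.36 and limma called 0. An unadjusted limma p under 0.05 was found for 6, all higher (75%, against 17.4% of all probes). The prolyl 3-hydroxylase family stood highest. P3h3 read 24238, 22030 and 23550 in high gainers, against 16022, 15302 and 15484 in low gainers. Its adjusted p was 0.0057, and its ratio of 1.49-fold fell just short of 1.5-fold. P3h1 read 15442, 18040 and 17131 in high gainers, against 9432, 12793 and 12540 in low gainers (1.47-fold, adjusted p = 0.0384). P3h4, a relative without known enzyme activity, read 4299, 4311 and 5046 in high gainers, against 3297, 3168 and 3737 in low gainers (1.34-fold, adjusted p = 0.0450, dim). Crtap, the partner that P3h1 needs in its complex, overlapped between pools on its brighter probe (1.09-fold, adjusted p = 0.4995). A second Crtap probe, not used in the counts, read 43117, 46804 and 46672 in high gainers, against 37332, 41894 and 40760 in low gainers, without overlap (1.14-fold, adjusted p = 0.235).

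The lysyl hydroxylases differed in their readings. Plod3 averaged 21922 ± 3239 in high gainers and 16356 ± 1238 in low gainers (1.33-fold, adjusted p = 0.0708), and Plod1 averaged 57372 ± 2298 in high gainers and 47876 ± 3579 in low gainers (1.20-fold, adjusted p = 0.118). Both had separate pools. Plod2, which hydroxylates the telopeptides where cross-links form, averaged 14333 ± 1038 in high gainers and 14506 ± 1478 in low gainers, with a 95% interval of 0.824 to 1.19 for its ratio. P4ha2, a catalytic chain of the prolyl 4-hydroxylase that stabilises the helix, was separated at 110392 ± 2887 in high gainers and 89137 ± 5715 in low gainers (1.24-fold, adjusted p = 0.0634).

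The chaperones, propeptide-removing and cross-linking proteins all pointed one way. Of 10 on the array 9 were measured, and all 9 had ratios above 0, against 54.1% of all probes. The high-gainer arrays lay apart and above for 8 (88.9%, against 20.3% of all probes). The median log2 ratio was 0.40, against 0.42 for all members, and Pcolce2 was the 1 called gene (11.1%, against 2.5% of all probes). Related lists were also above 0 throughout, with 4 of 4 other collagens, 10 of 10 secretion and folding genes and 6 of 6 basement membrane partners. Lox, lysyl oxidase, which oxidises lysines so that fibrils can cross-link, read 110385, 116716 and 91599 in high gainers, against 71869, 52300 and 55034 in low gainers. Its ratio was 1.79-fold with an adjusted p of 0.0111. Its relative Loxl2 read 25422, 23279 and 22008 in high gainers, against 17282, 14986 and 16492 in low gainers (1.45-fold, adjusted p = 0.0138). A second, dim Loxl2 probe, not used in the counts, read 3576, 3675 and 3939 in high gainers, against 1882, 2241 and 2130 in low gainers (1.79-fold, adjusted p = 0.0021), and passed both thresholds. Loxl1 averaged 74646 ± 1660 in high gainers and 60080 ± 2995 in low gainers (1.24-fold, adjusted p = 0.0536), and Loxl3, the only member of this group to overlap, stood at 1.22-fold (adjusted p = 0.2388).

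Bmp1, the proteinase that removes the C-propeptide, read 14764, 12111 and 10442 in high gainers, against 8943, 8058 and 8889 in low gainers (1.43-fold, adjusted p = 0.0457). Pcolce, the enhancer related to Pcolce2, averaged 65016 ± 2797 in high gainers and 51096 ± 6639 in low gainers, a ratio of 1.28-fold (adjusted p = 0.0831) whose 95% interval ended at 1.55, below the lower end for Pcolce2. Serpinh1 averaged 281648 ± 18078 in high gainers and 228782 ± 12746 in low gainers (1.23-fold, adjusted p = 0.0816). Sparc, a collagen-binding matrix protein, was among the brightest members and read 791110, 758626 and 876265 in high gainers, against 656166, 541355 and 647867 in low gainers (1.32-fold, adjusted p = 0.0566).

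Ddr2, a receptor tyrosine kinase that binds fibrillar collagen, read 55430, 47433 and 60342 in high gainers, against 43924, 37006 and 33916 in low gainers (1.42-fold, adjusted p = 0.0455). Loxhd1 matched the symbol rule although it is a protein of inner ear hair cells and not a lysyl oxidase. Its dim probe overlapped between pools, at 5547 ± 1987 in high gainers and 6302 ± 1039 in low gainers (adjusted p = 0.5957).

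**Figure D3:**
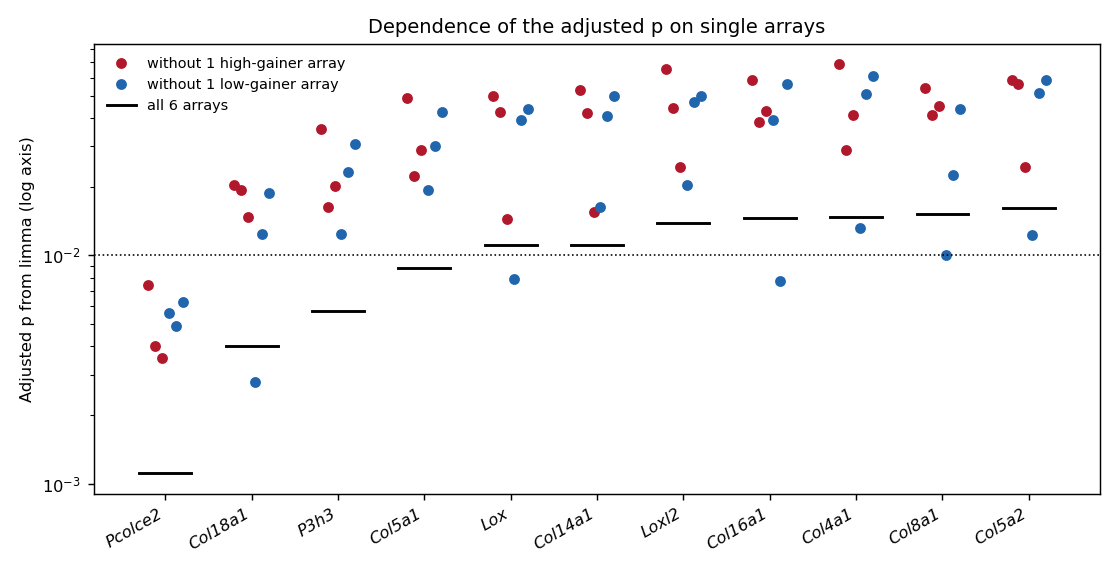
Adjusted p from limma (log axis) for the 11 members with the lowest values, with all 6 arrays (black line) and without each array in turn (red, without 1 high-gainer array, left of blue, without 1 low-gainer array). The dotted line is the threshold of 0.01, and of these 11 members Pcolce2 alone stayed under it in each of the 6 fits.

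The other 18 members had no probe with a value on all arrays. No value was listed on any array for 7 of them (Col6a6, Col9a2, Col10a1, Col13a1, Col19a1, Colgalt2 and Loxl4), 5 had a value on 1 array (Col9a1, Col11a1, Col17a1, Col25a1 and P4ha3), and 6 on 2 to 5 arrays (Col4a5, Col7a1, Col9a3, Col11a2, Col26a1 and P3h2). Their values were low, between 456 and 2716. Col4a5 had 1863, 2716 and 1965 on the high-gainer arrays, against 1614 and 1476 on L1 and L3. Col26a1 had 1936, 1468 and 1345 on the high-gainer arrays, against 1685 on L1. Col7a1, the anchoring fibril collagen of skin, had 602 and 984 on H1 and H3, against 997, 1147 and 1073 on the low-gainer arrays. No member had values on all arrays of 1 pool and on none of the other, and a blank is not taken as absence of the transcript.

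The order of arrays within a pool was uneven for these genes. L1 was the highest low-gainer array for 25 of the 39 members (64.1%), against 43% of all probes, and L2 was the lowest for 22 (56.4%), against 36.4%. In high gainers no array was highest for more than 16 members.

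Genes that act beside the members were read from lists. For comparison, limma called 2.5% of all probes higher and 3.99% lower. At an unadjusted limma p under 0.05, 17.4% of all probes were higher and 13.6% lower. Of 13 measured fibril-binding proteins 3 rose, and the list median was a log2 ratio of 0.43. They were Dpt (dermatopontin) at 2.27-fold (adjusted p = 0.0020), Aspn (asporin) at 1.78-fold (adjusted p = 0.0027) and Thbs2 (thrombospondin 2) at 1.67-fold (adjusted p = 0.0035). Dpt read 495598, 413655 and 422370 in high gainers, against 173146, 181712 and 236728 in low gainers, a ratio above that of any of the 39 members. Of the 13, 11 had ratios above 0 and 2 below, Postn (0.876-fold) and Tnc (0.788-fold). By the unadjusted p 9 of the 13 were higher and 1 was lower, Tnc, whose high-gainer arrays lay below all low-gainer arrays. Of 6 basement membrane partners 1 rose, Nid2, which binds type IV collagen to laminin (1.78-fold, adjusted p = 0.0027). The list median was 0.38, with 3 higher and 0 lower at that unadjusted p. Of 12 collagen-degrading enzymes and inhibitors 1 rose, the lysosomal proteinase Ctsl (1.70-fold, adjusted p = 0.0017), with a list median of 0.33. By the unadjusted p, 7 of the 12 were higher and 1 was lower, Mmp9 (0.691-fold, adjusted p = 0.0130). Of 10 secretion and folding genes limma called 0 (median 0.23), with 4 higher at an unadjusted p under 0.05. Of 3 other collagen receptors it called 0, with 1 higher and 1 lower at that p. Of 8 transforming growth factor beta inputs it called 0 (median 0.06), with 1 higher and 2 lower at that p. Of the 8, 0 had all high-gainer arrays above all low-gainer arrays, against 20.3% of all probes. For 2, Tgfb1 and Ltbp2, all high-gainer arrays lay below, against 16.3% of all probes. The list holds few genes, and its difference from all probes was not tested.

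**Figure D4:**
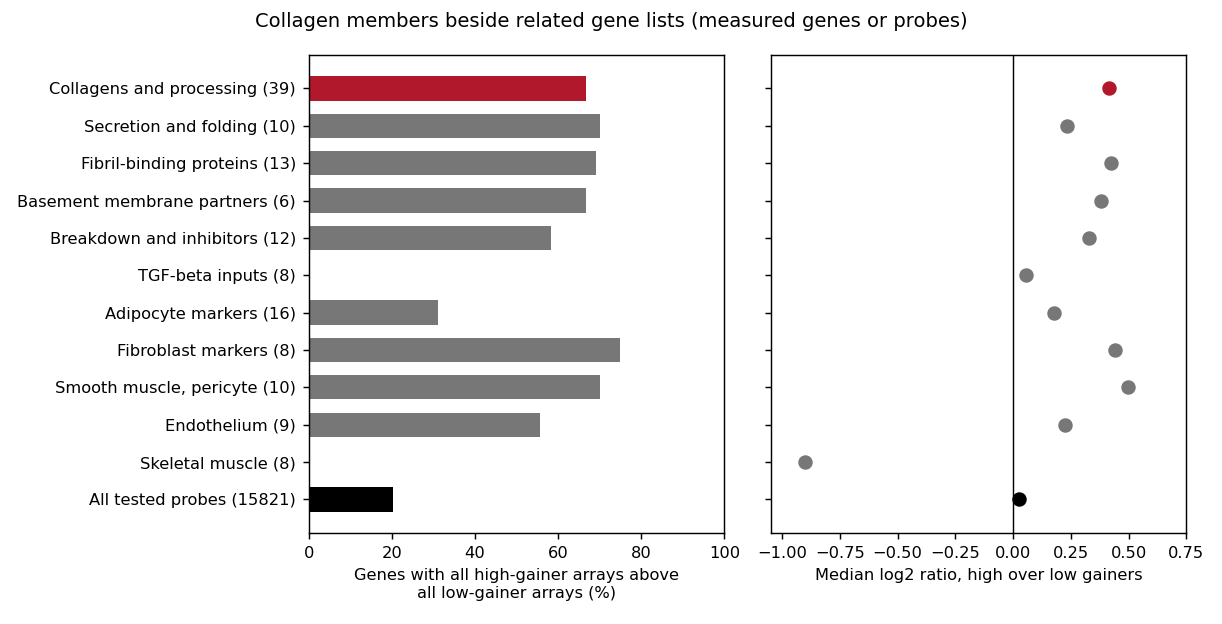
Share of measured genes with all high-gainer arrays above all low-gainer arrays (left) and median log2 ratio, high over low gainers (right), for the collagen members (red), related gene lists (gray, number of genes in brackets) and all probes (black). The members stood at 66.7% and 0.42, transforming growth factor beta inputs at 0% and 0.06, and all probes at 20.3% and 0.03.

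Markers of the cell types in fat also differed between the pools. In bulk tissue, fewer cells of a type and less RNA per cell cannot be told apart. Of the adipocyte markers 16 of 22 were measured, with a summed signal of 10380742 to 10470635 in high gainers and 9508759 to 9868282 in low gainers. Such a sum is led by the brightest probes, and it cannot test the tissue label without another tissue beside it. The median log2 ratio of the adipocyte markers was 0.18, with 13 genes above 0 and 3 below. Limma called 2 higher, Lep and Plin4 (12.5%, against 2.5% of all probes), and 0 lower. All high-gainer arrays lay above all low-gainer arrays for 5 (31.2%, against 20.3% of all probes). They lay below for 1, Cidec (0.814-fold), against 16.3% of all probes. Fibroblast and preadipocyte markers, from cells that make most fibrillar collagen, had a median log2 ratio of 0.44 over 8 genes, 7 above 0 and 1 below. Pi16 was called higher (1.98-fold, adjusted p = 0.00078) and Thy1, on a dim probe, lower (0.6-fold, adjusted p = 0.0066). At an unadjusted limma p under 0.05, 6 were higher (75%, against 17.4% of all probes) and 1 lower (against 13.6% of all probes). All high-gainer arrays lay above all low-gainer arrays for 6 (75%, against 20.3% of all probes) and below them for 1. The sums of 2114205 to 2570810 in high gainers and 1901870 to 2327690 in low gainers overlapped. Most of each sum was Dcn (1695974 to 2166648 in high gainers, 1603142 to 2025710 in low gainers). Smooth muscle and pericyte markers had a median log2 ratio of 0.50 over 10 genes, 8 above 0 and 2 below, with 0 called by limma. At an unadjusted limma p under 0.05, 7 were higher (70%, against 17.4% of all probes) and 0 lower. Of the 2 below 0, Cnn1 overlapped between pools and Des had all high-gainer arrays below all low-gainer arrays (0.906-fold). The sums of this list were 427665 to 450264 in high gainers and lay above 318590 to 325610 in low gainers. Endothelial markers had a median of 0.23 over 9 genes with 0 called by limma. At the same unadjusted p 4 were higher (44.4%, against 17.4% of all probes) and 0 lower. Their sums were 711893 to 791550 in high gainers and 625739 to 653336 in low gainers.

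Other lists ran the opposite way. Of the B cell markers 5 of 5 fell, of the T cell markers 5 of 7, of the epithelial markers 3 of 4 and of the skeletal muscle markers 8 of 8. The share over all probes was 3.99%. The median log2 ratios of these lists were -1.80, -1.65, -1.80 and -0.90. The summed B cell signal was 87156 to 92444 in high gainers, against 301411 to 316955 in low gainers, and the summed skeletal muscle signal was 944718 to 1032486 in high gainers, against 1792827 to 2018889 in low gainers. The part of these differences in tissue composition in the readings of the collagen members was not tested. Centring each array on the adipocyte markers moved every log2 ratio by -0.20, left 31 of the 39 members above 0 with a median of 0.22, and left Pcolce2 as the 1 called member.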

How the data were processed

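Total RNA of each pool was labelled and hybridised to Applied Biosystems one-colour arrays of 33012 probes, on which 18018 to 20605 probes per array held a value. The deposited values are signal intensities, quantile-normalized across arrays by the authors, per their methods. Quantile normalization gives every array the same distribution, so a value is relative to the other probes. The number of arrays, 3 per pool, limits the precision. The authors counted a feature as detected by its signal-to-noise ratio and flag, and whether blank cells are undetected features was not stated, so blanks were left as missing.

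Probes with values on all 6 arrays (15821) were converted to log2 and fitted with limma 3.58.1 in R 4.3.3, with no covariate, and p-values were adjusted by Benjamini-Hochberg over all of them. A probe was called at an adjusted p under 0.01 and a ratio of at least 1.5-fold. The study's methods give the same cut-offs for an ANOVA, with no adjustment stated. Log2 ratios are high minus low gainers. Gene symbols came from the platform annotation: 14411 probes had 1 symbol and 247 several, which were not named. Correlation between arrays was 0.988 to 0.994 within a pool and 0.972 to 0.980 between pools. The script was tested on simulated data.

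Named genes were all called members, the 8 highest and 6 lowest log2 ratios, the 3 brightest, and the chains or enzymes of shared complexes and families, plus called genes of neighbouring lists. Any other gene was picked with its values in view. Members and lists were chosen with earlier results of these data known. Promoter windows are from RefSeq (GRCm38.p6). No source used here names the build behind the probe design. Fits were repeated under other scalings, filters, tests and with each array left out.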

Additional observations from a re-analysis of the deposited data

How the results depend on the processing

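Of the 39 members the 2 called higher became 1 when arrays were centred on adipocyte markers, at a 2-fold threshold and with a replicate block, where Pcolce2 alone remained and Col18a1 had an adjusted p of 0.0132. The count was 5 of 30 without dim probes, 6 with an offset added to the signal, 6 with a trended and robust fit, 4 with no fold threshold and 4 by the methods' unadjusted test. In the same order, 357 (of 10547), 329, 491, 446 and 474 of all probes were called higher. The main fit gave 396, and 98 at the 2-fold threshold. The methods' test gave 0 members and 46 probes higher after Benjamini-Hochberg adjustment, an alternative chosen after seeing the data. With 1 array left out the count was 1 to 3 members, and 105 to 319 over all probes. No setting called a member lower. The array numbers do not pair the samples (correlation of same-numbered arrays 0.04, -0.11 and 0.27), so the block is no paired test; it moved the calls over all probes from 396 higher and 632 lower to 173 and 446. Centring on adipocyte markers shifted all log2 ratios by -0.198 and gave 123 higher and 936 lower.

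The median log2 ratio of the members was 0.218 centred on adipocyte markers, 0.239 centred on their median change (also chosen after seeing the data) and 0.368 to 0.485 with 1 array left out. Signs turned only for small ratios. By the 2 adipocyte centrings these were Col3a1 (-0.136 and -0.114), Crtap (-0.0687 and -0.0473) and Col6a2 (-0.0416 and -0.0203). With 1 array left out they were Col3a1 (-0.104 to 0.314), Col1a1 (-0.323 to 0.0619), Col2a1 (-0.328 to 0.0381), Plod2 (-0.0765 to 0.0648) and Loxhd1 (-0.498 to 0.0194). Signals near the bottom of the array limit Col4a3, Col4a4, Col5a3, Col8a1, Col2a1, Col23a1, P3h4, Loxl3 and Loxhd1.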
